A study of Tupaia belangeri chinensis with 36 samples.

Results

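The miR-29 family of microRNAs was followed in testis and in the head (caput) and tail (cauda) of the epididymis of Tupaia belangeri chinensis, a tree shrew, in a reproductive (R) and a non-reproductive (NR) season. Members were the entries of the miRNA count table whose mouse name begins with miR-29a, miR-29b or miR-29c, which gave 7 of 1210 entries: miR-29a-3p, miR-29a-5p, miR-29b-1-5p, miR-29b-2-5p, miR-29b-3p, miR-29c-3p and miR-29c-5p. All animals were sexually mature males aged 1.5 to 2 years. The R groups (testis, caput and cauda) were collected in April 2024 and the NR groups (the same tissues) in December 2023, so season and collection date cannot be told apart. Nothing in the labels says which libraries came from the same animal. Small RNA was sequenced with reads of 50 nt, and each of the 6 groups had 3 columns in the table.

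Mature miRNAs are short RNAs that guide Argonaute proteins to messenger RNAs, mainly through a stretch near their 5′ end called the seed, and lower the output of those messengers. Each hairpin precursor can give a 3p and a 5p strand, and in the miR-29 family the 3p strand is the one usually loaded and kept. In mouse and human the family is made from a pair of clusters, one that holds miR-29a with a miR-29b copy and one that holds miR-29c with the other miR-29b copy. The 3p strands share a seed and are known for repressing collagens, elastin, fibrillin and other genes of the extracellular matrix. They also repress the de novo DNA methyltransferases, the TET enzymes and the survival factor MCL1. In fibrotic tissues of mouse and human miR-29 is often low. The epididymis is a tubule with an epithelium that matures sperm, wrapped in a smooth muscle coat that thickens toward the cauda.

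In the tree shrew annotation of RefSeq (TupChi_1.0) 4 mir-29 loci are listed, and they lie in pairs: MIR29A is next to MIR29B-2, and MIR29C is next to MIR29B-1. The copy numbers of miR-29b are thus the reverse of the mouse numbering, in which miR-29b-1 lies beside miR-29a. The miRNA table uses mouse names, and the sources used here do not say from which tree shrew locus its miR-29b-1-5p and miR-29b-2-5p entries were counted. The mature 3p strands of both miR-29b copies are the same, and the table has 1 entry for them. The 3p strands of miR-29a and miR-29c have nearly the same sequence, so how the authors assigned reads between them could move counts from one to the other.

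Of the 18 columns, 16 were measured libraries. The columns TESTIS-NR 2 and CAPUT-NR 2 held, at 100% of miRNAs, the average of their group's other libraries rounded to a whole count, against at most 5.35% of the miRNAs with counts in any measured library, and were left out. That leaves n = 2 in TESTIS-NR and CAPUT-NR and n = 3 in the other groups. Measured libraries held 2166152 to 14756858 miRNA counts, the smallest of them from testis. The 10 most abundant miRNAs took 67.1% to 75.1% of a library. Epithelial miRNAs of the miR-200 and miR-141 family summed to 91121 to 121066 CPM (counts per 1000000 counts of the library) in caput and 62715 to 96639 CPM in cauda, against 211 to 3559 CPM in testis. Of 8 germ cell miRNA names sought, only 3 (miR-34b, miR-34c and miR-449a) were in the table, with 5 entries. These entries summed to 4704 to 7994 CPM in 4 testis libraries but to 341 CPM in TESTIS-NR 1, which lies within the epididymal range of 324 to 1254 CPM. Results on testis are therefore also given without TESTIS-NR 1.

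The family made up a large part of the miRNA counts in every tissue. Its 7 members together took 9.35%, 10.04% and 10.1% of the counts in TESTIS-R and 10.3% and 7.89% in TESTIS-NR. In CAPUT-R they took 12.6%, 13.3% and 12.8%, and in CAPUT-NR 9.91% and 11.6%. In CAUDA-R they took 8.12%, 11.7% and 8.26%, and in CAUDA-NR 7.74%, 7.49% and 10.1%. The 3 CAPUT-R libraries were the highest of the 16, and the caput ranges overlapped those of the testis and the cauda only through CAPUT-NR. Nearly all of this came from the 3p strands, since the 5p strands took 0.217% to 0.461% of the family's counts in a library. CPM were taken over all miRNA counts of a library, so they share out a fixed total.

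miR-29c-3p was the most abundant member, and its mean ranked 3 to 6 among all miRNAs of a group. It stood at 61595, 67705 and 69938 CPM in TESTIS-R and at 80390 and 53555 CPM in TESTIS-NR. It stood at 91764, 96665 and 93745 CPM in CAPUT-R and at 61849 and 83757 CPM in CAPUT-NR. Cauda had 55927, 76797 and 56090 CPM in CAUDA-R, and 46977, 48116 and 65459 CPM in CAUDA-NR. All CAPUT-R libraries lay above all CAPUT-NR libraries and above every library of the other tissues. In testis and cauda the seasons overlapped.

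miR-29a-3p, the other abundant member, ranked 7 to 10. Testis had 30376, 30985 and 29072 CPM in TESTIS-R and 21836 and 24471 CPM in TESTIS-NR. Caput had 32016, 33006 and 31806 CPM in CAPUT-R and 35495 and 29971 CPM in CAPUT-NR. Cauda had 22319, 37571 and 24232 CPM in CAUDA-R and 28240, 24560 and 33165 CPM in CAUDA-NR. The testis seasons did not overlap, with TESTIS-R the higher, while in caput and cauda they did. On this scale the tissue means ran from 32459 ± 2021 CPM in caput (SD, n = 5) through 28348 ± 5931 CPM in cauda (n = 6) to 27348 ± 4001 CPM in testis (n = 5), and neighbours in that order overlapped.

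miR-29b-3p was far less abundant than its relatives, with ranks of 42 to 58. It was at 1354, 1434 and 1637 CPM in TESTIS-R, against 1022 and 697 CPM in TESTIS-NR. It was at 1521, 3019 and 2225 CPM in CAPUT-R, against 1524 and 1780 CPM in CAPUT-NR, and at 2588, 2079 and 2000 CPM in CAUDA-R, against 1950, 1999 and 2205 CPM in CAUDA-NR. TESTIS-NR held the lowest values of the 16 libraries. Every cauda library was above every testis library, while the caput range overlapped both. The tissue means were 2137 ± 238 CPM in cauda (SD, n = 6), 2014 ± 631 CPM in caput (n = 5) and 1229 ± 371 CPM in testis (n = 5). Cauda and caput, neighbours in that order, did not differ beyond their spread.

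**Figure D1:**
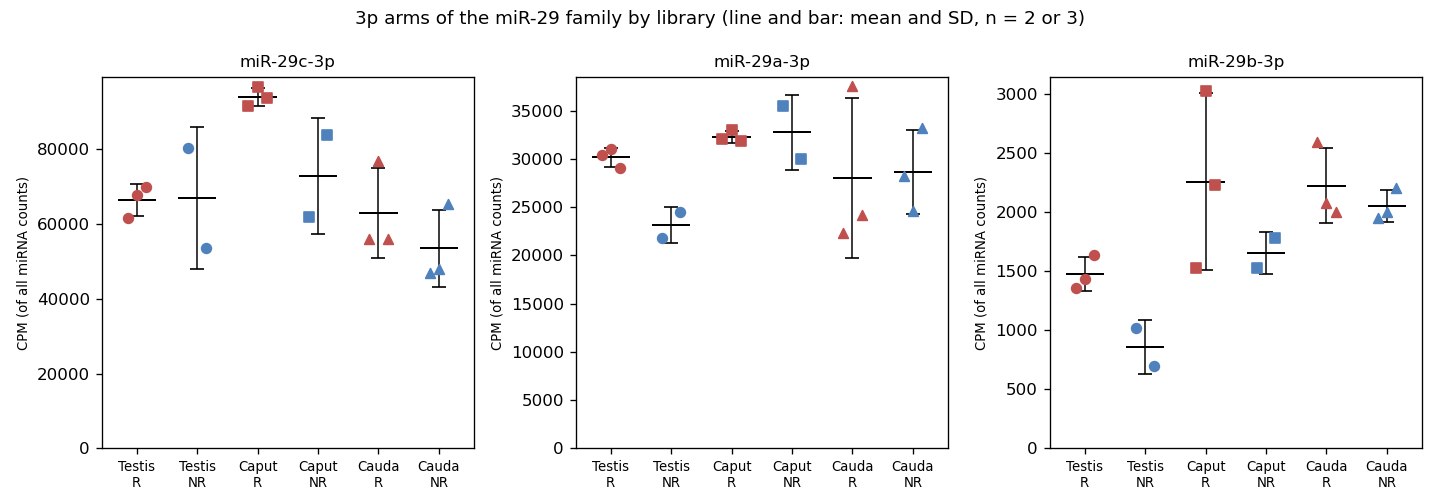
Levels in CPM (vertical axes, from 0) of the 3p strands of miR-29c, miR-29a and miR-29b, with 1 point per measured library, red for R and blue for NR, and a line and bar for the group mean and SD. miR-29c-3p is highest in the 3 CAPUT-R libraries (91764 to 96665 CPM), and miR-29b-3p is lowest in TESTIS-NR (697 and 1022 CPM).

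Among the 5p strands miR-29b-2-5p was the most abundant in every library but CAUDA-NR 2. It stood at 115, 109 and 125 CPM in TESTIS-R and 120 and 87.1 CPM in TESTIS-NR. It stood at 276, 287 and 275 CPM in CAPUT-R, against 171 and 182 CPM in CAPUT-NR, and at 166, 208 and 154 CPM in CAUDA-R, against 114, 78.6 and 155.2 CPM in CAUDA-NR. Every caput library was above every testis library, and the CAPUT-R libraries were above all others of the series, with CAPUT-NR within the CAUDA-R range. The caput seasons did not overlap, and the cauda seasons overlapped through 1 library of each.

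miR-29c-5p, the passenger strand of miR-29c, was at 60.4, 73.1 and 41.1 CPM in TESTIS-R and 30.9 and 67.6 CPM in TESTIS-NR. It was at 136, 145.5 and 115 CPM in CAPUT-R, against 60.7 and 95.2 CPM in CAPUT-NR, and at 93.1, 92.6 and 76.5 CPM in CAUDA-R, against 50.7, 42.2 and 94.8 CPM in CAUDA-NR. As for miR-29b-2-5p, the CAPUT-R libraries were the highest of the series and did not overlap CAPUT-NR. In testis and cauda the seasons overlapped.

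miR-29a-5p, the passenger strand of miR-29a, had another order of tissues. Its mean was 81.7 ± 16.2 CPM in cauda (SD, n = 6), 58.6 ± 20.6 CPM in testis (n = 5) and 44.6 ± 15.7 CPM in caput (n = 5). The testis range was 40.4 to 88.2 CPM, the caput range 20.5 to 55.9 CPM and the cauda range 63.9 to 110.0 CPM, so all cauda libraries lay above all caput libraries. miR-29b-1-5p was hardly detected: its counts were 0 to 57 in a library, with 0 in TESTIS-R 2 and TESTIS-NR 3. A count of 0 allows up to 3 counts in such a library, by counting error alone, so no level is read from this member in testis.

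**Figure D2:**
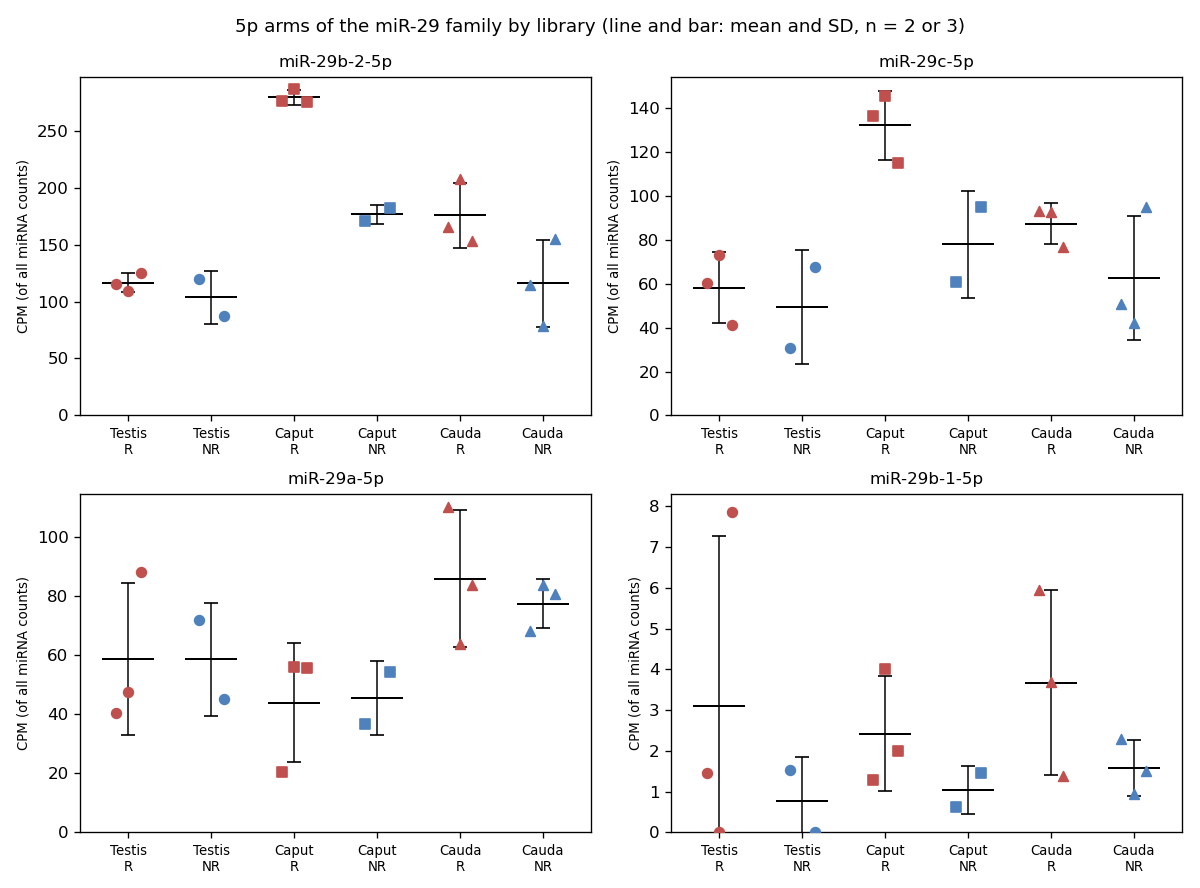
Levels in CPM (vertical axes, from 0) of the 4 entries for 5p strands, with 1 point per measured library, red for R and blue for NR, and a line and bar for the group mean and SD. miR-29b-2-5p and miR-29c-5p are highest in CAPUT-R (275 to 287 and 115 to 145.5 CPM), whereas miR-29a-5p is lower in caput (20.5 to 55.9 CPM) than in cauda (63.9 to 110.0 CPM).

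The balance within the family also varied between libraries. miR-29c-3p made up 60.9% to 77.9% of the 3p counts and miR-29b-3p 0.886% to 3.20%, and miR-29c-3p exceeded miR-29a-3p by 1.66 to 3.68 times. In CAPUT-R that ratio was 2.87, 2.93 and 2.95, against 1.74 in CAPUT-NR 1 and 2.79 in CAPUT-NR 3. In TESTIS-R it was 2.03, 2.19 and 2.41, against 3.68 in TESTIS-NR 1, the highest of the series, and 2.19 in TESTIS-NR 3. In CAUDA-R it was 2.51, 2.04 and 2.31, against 1.66, 1.96 and 1.97 in CAUDA-NR. The CAUDA-R values were all above the CAUDA-NR values, the CAPUT-R values were above the CAPUT-NR values, and the testis seasons overlapped. These ratios were compared as values and not tested.

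The 3p strand exceeded the 5p strand by 203 to 1559 times for miR-29a and by 601 to 2600 times for miR-29c. For miR-29a the ratio was 203 to 588 in cauda, 303 to 752 in testis and 552 to 1559 in caput, with the highest value in CAPUT-R 1. For miR-29c it was 792 to 2600 in testis, 665 to 1018 in caput and 601 to 1141 in cauda, with the highest value in TESTIS-NR 1. The miR-29a ratio was higher in caput than in cauda apart from CAUDA-R 2, which exceeded 2 caput libraries, whereas the caput and cauda ranges of the miR-29c ratio largely coincided. These ratios were not tested either.

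The first comparison asked which miRNAs differ between the seasons within a tissue, which is the comparison the study's design names. No member of the miR-29 family passed the test in any tissue. In testis 0 of the 6 members tested passed edgeR's quasi-likelihood test at a Benjamini-Hochberg adjusted p under 0.05, where 0% of the 496 miRNAs were called. In caput it was 0 of 7, with 0% of 534 miRNAs called, and in cauda 0 of 7, with 3.08% of 455 miRNAs called. At an unadjusted p under 0.05 there were 36 miRNAs in testis, 24 in caput and 75 in cauda. Of the members only miR-29b-3p in testis was among them. DESeq2 called 24 miRNAs in testis, 15 in caput and 53 in cauda, and 0 members in each.

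In testis, the R minus NR change (log2) of miR-29b-3p was 0.76 (SE 0.28), with an adjusted p of 0.598 in edgeR's quasi-likelihood test with Benjamini-Hochberg adjustment, and all 3 TESTIS-R libraries were above both TESTIS-NR libraries. miR-29a-3p, whose testis seasons did not overlap either, had a change of 0.35 (SE 0.16) and an adjusted p of 0.714. miR-29c-3p had -0.03 (SE 0.18). The median change of all miRNAs tested was 0.10, and 4 of 6 members were positive. Without TESTIS-NR 1, the NR side held only TESTIS-NR 3. The changes were then 0.88 for miR-29b-3p, 0.11 for miR-29a-3p and 0.11 for miR-29c-3p, with no spread within NR. With all libraries the change of miR-29c-3p was smaller than its SE, and among mouse-named rows it was positive (0.020). Its sign is thus not settled.

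In caput, miR-29c-5p had a change (log2) of 0.72 (SE 0.35) and miR-29b-2-5p of 0.62 (SE 0.27), both with an adjusted p of 0.775 in edgeR's quasi-likelihood test with Benjamini-Hochberg adjustment. miR-29c-3p had 0.32 (SE 0.26), miR-29b-3p 0.34 (SE 0.20) and miR-29a-3p -0.07 (SE 0.24). The low-count miR-29b-1-5p had the largest value and the largest error, 1.07 (SE 0.70), and miR-29a-5p had -0.17. Over the 7 members 5 were positive, with a median of 0.34, beside a median of 0.10 over all miRNAs tested.

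In cauda all 7 members were positive in R minus NR, with a median change (log2) of 0.29, beside 0.05 over all miRNAs tested. miR-29b-2-5p had 0.67 (SE 0.28), with an adjusted p of 0.291, miR-29c-5p 0.55 (SE 0.31), with 0.374, and miR-29c-3p 0.29 (SE 0.23), with 0.514, in edgeR's quasi-likelihood test with Benjamini-Hochberg adjustment. miR-29b-3p had 0.14 (SE 0.14) and miR-29a-3p 0.04 (SE 0.28), smaller than its error. miR-29b-1-5p had 1.27 (SE 0.62) from at most 57 counts in a library. Members share libraries, so their common sign is not 7 separate observations. Over all alternatives and tissues, 272 fits of a member to a season change gave 0 calls, and the lowest adjusted p among them was 0.0836.

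**Figure D3:**
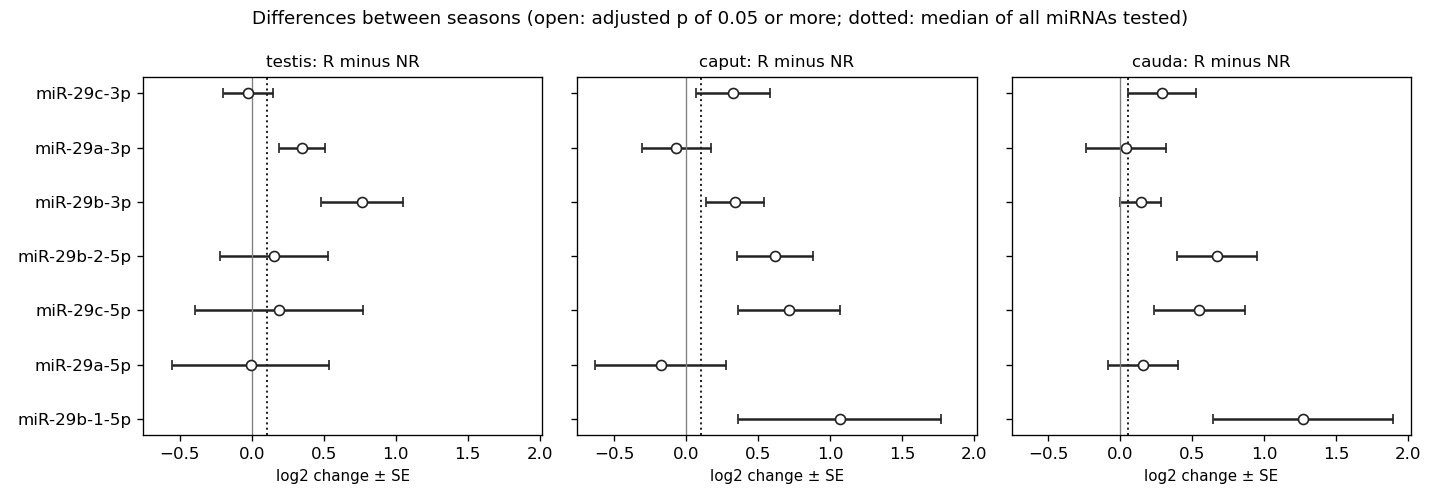
Changes between seasons, R minus NR, as log2 with SE (horizontal axes) for each member (rows) in testis, caput and cauda. All points are open, because 0 members passed an adjusted p of 0.05, and the dotted line marks the median of all miRNAs tested (0.10, 0.10 and 0.05).

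Whether the season change differed between tissues was tested as an interaction of tissue and season. For testis against caput 0 of 7 members were called, with 0% of 677 miRNAs called, 27 at an unadjusted p under 0.05 and 12 by DESeq2. For testis against cauda it was 0 of 7, with 0% of 713 miRNAs called, 62 at an unadjusted p under 0.05 and 21 by DESeq2. For caput against cauda it was 0 of 7, with 0% of 620 miRNAs called, 35 at an unadjusted p under 0.05 and 15 by DESeq2. The lowest adjusted p of a member in edgeR's quasi-likelihood test with Benjamini-Hochberg adjustment was 0.893, 0.691 and 0.9999 in these comparisons. Seasonal values that were larger for miR-29b-2-5p in caput and cauda than in testis are therefore not shown to differ between the tissues.

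The tissues were then compared with season as a covariate. Testis stood below caput for most of the family. In testis minus caput 5 of 7 members were lower and 0 were higher, where 23.6% of the 537 miRNAs tested were lower and 23.8% were higher. miR-29b-2-5p had a change (log2) of -1.63 (SE 0.28), with an adjusted p of 0.00165 in edgeR's quasi-likelihood test with Benjamini-Hochberg adjustment, and miR-29c-5p had -1.58 (SE 0.32), with 0.00362. These are the 5p strands that in mouse come from 1 cluster.

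Among the 3p strands miR-29b-3p fell by 1.26 (log2, SE 0.21) in testis minus caput, with an adjusted p of 0.00141 in edgeR's quasi-likelihood test with Benjamini-Hochberg adjustment. miR-29c-3p fell by 0.91 (SE 0.25), with an adjusted p of 0.0155, and miR-29a-3p fell by 0.84 (SE 0.17), with 0.00396. miR-29a-5p had -0.10 (SE 0.38) and miR-29b-1-5p -0.36 (SE 1.23), neither past the threshold. Without TESTIS-NR 1 the same count of 5 was called, with -1.89 for miR-29b-2-5p, -1.57 for miR-29c-5p, -1.45 for miR-29b-3p, -1.19 for miR-29c-3p and -0.91 for miR-29a-3p.

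These sizes depend on the scaling. The tests used TMM, which sets the bulk of the miRNAs equal, with factors computed within each comparison. TMM factors computed separately over the 16 libraries were 1.03 to 1.41 in testis and 0.595 to 1.02 in caput, lowest in CAPUT-R 1. Under library totals, the scale of the CPM above, the median of all miRNAs in testis minus caput was 0.64 in place of 0.07. There miR-29b-2-5p had -1.06, miR-29c-5p -0.97 and miR-29b-3p -0.74, all still called. The abundant members were lost, with miR-29c-3p at -0.35 (adjusted p 0.106 in edgeR's quasi-likelihood test) and miR-29a-3p at -0.26 (adjusted p 0.143). Relative to the median of all miRNAs the change was alike on both scales, -0.98 and -0.99 for miR-29c-3p, -0.91 and -0.90 for miR-29a-3p, and -1.70 and -1.70 for miR-29b-2-5p. That likeness holds for the rows tested here. Among mouse-named rows alone the median of all miRNAs was -0.37, and relative to it the changes were smaller, -0.46 for miR-29c-3p, -0.36 for miR-29a-3p and -1.18 for miR-29b-2-5p, although all 5 members were still called. How far miR-29a-3p and miR-29c-3p of testis lay below other miRNAs thus depends on which rows are counted, and as a share of all miRNA counts they were not detectably lower.

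The calls of miR-29a-3p and miR-29c-3p in testis minus caput also rested on single caput libraries. Without CAPUT-R 1 they were -0.36 and -0.42 (adjusted p 0.139 and 0.0663), and without CAPUT-R 3 they were -0.54 and -0.58 (0.0900 and 0.0837), in edgeR's quasi-likelihood test with Benjamini-Hochberg adjustment. Without CAPUT-NR 1 they were -0.47 and -0.74 (0.138 and 0.0554), and without CAPUT-NR 3 they were -0.65 and -0.71 (0.0742 and 0.0639). The median of all miRNAs moved as well, to 0.39 to 0.73, and relative to it the changes were -0.91 to -1.39 for miR-29a-3p and -0.97 to -1.44 for miR-29c-3p, close to or beyond the values with all libraries. The calls of miR-29b-2-5p, miR-29b-3p and miR-29c-5p remained without each of the 10 libraries in turn. Within the R libraries all 5 calls were made, and within the NR libraries, with n = 2 against n = 2, 0 were made, among 0 of all miRNAs, at values of -0.46 to -1.28 for these 5 members.

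Testis and cauda differed in 1 member. In testis minus cauda miR-29b-3p fell by 1.13 (log2, SE 0.22), with an adjusted p of 0.00201 in edgeR's quasi-likelihood test with Benjamini-Hochberg adjustment. This was 1 of 7 members lower and 0 higher, where 24.2% of 553 miRNAs were lower and 23.3% were higher. It was called in all 21 alternatives, among them both seasons alone (-0.87 in R and -1.54 in NR), library totals (-0.88) and without TESTIS-NR 1 (-1.16). miR-29c-5p had -0.78 (SE 0.30) with an adjusted p of 0.0547, miR-29a-5p -0.73 (SE 0.32) with 0.0820, and miR-29b-2-5p -0.64 (SE 0.29) with 0.0966, in the same test. Without TESTIS-NR 1, miR-29b-2-5p was called as well, at -0.81 (adjusted p 0.0259), and so it was in R alone (-0.90, 0.0463). In the same test miR-29c-5p was called without TESTIS-NR 3 (-0.96, 0.0391) and miR-29a-5p without CAUDA-R 2 (-0.88, 0.0431). With averaged columns kept each of these members was called.

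The most abundant members did not separate testis from cauda. In testis minus cauda miR-29a-3p had a change (log2) of -0.36 (SE 0.20), with an adjusted p of 0.161, and miR-29c-3p -0.06 (SE 0.25), with 0.862, in edgeR's quasi-likelihood test with Benjamini-Hochberg adjustment. Under library totals miR-29c-3p had 0.19 (SE 0.16), the opposite sign, and the median of all miRNAs was 0.30 in place of 0.03. A difference that misses the threshold does not show equal levels.

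Caput stood above cauda for miR-29b-2-5p, both strands of miR-29c and miR-29a-3p. In caput minus cauda 4 of 7 members were higher and 0 were lower, where 15.1% of 535 miRNAs were higher and 12.9% were lower. miR-29b-2-5p rose by 1.05 (log2, SE 0.19), with an adjusted p of 0.00215 in edgeR's quasi-likelihood test with Benjamini-Hochberg adjustment. miR-29c-3p rose by 0.92 (SE 0.17), with 0.00249, miR-29c-5p by 0.88 (SE 0.24), with 0.0225, and miR-29a-3p by 0.60 (SE 0.18), with 0.0324. miR-29b-2-5p and miR-29c-3p were called in 20 of 21 alternatives, including library totals (0.64 and 0.52), whose median over all miRNAs was -0.33 in place of 0.04.

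The calls of miR-29c-5p and miR-29a-3p in caput minus cauda were less firm. miR-29c-5p was called in 14 of 21 alternatives. It missed the threshold without CAPUT-R 1 (0.75), CAPUT-NR 3 (0.72) or CAUDA-R 3 (0.84), with adjusted p of 0.0512, 0.104 and 0.0515 in edgeR's quasi-likelihood test, and under library totals (0.47, adjusted p 0.196). In the same test it also missed it without the filter (0.86, adjusted p 0.0584), with all libraries in 1 fit (0.87, 0.0778) and in NR alone (0.88, 0.271). miR-29a-3p was called in 10 of 21. It missed the threshold without any of CAPUT-R 1, CAPUT-NR 1, CAPUT-NR 3, CAUDA-R 1, CAUDA-R 3, CAUDA-NR 1 and CAUDA-NR 2, at 0.50 to 0.59, and under library totals (0.20, adjusted p 0.378). In the same test it also missed it without the filter (0.55, adjusted p 0.118), with the replicate block (0.63, 0.163) and in R alone (0.53, 0.280). In NR alone miR-29a-3p was called (0.71, adjusted p 0.0357 in that test).

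miR-29b-3p and miR-29a-5p were not called between caput and cauda by edgeR. In caput minus cauda miR-29b-3p had a change (log2) of 0.23 (SE 0.12), with an adjusted p of 0.192 in edgeR's quasi-likelihood test with Benjamini-Hochberg adjustment, and -0.13 under library totals. DESeq2 called it higher in caput, at 0.26 (SE 0.095, adjusted p 0.0172), which makes 5 members called by that tool. miR-29a-5p had -0.53 (SE 0.24), with 0.143, the opposite sign of its 3p strand. Within single seasons the caput minus cauda values of miR-29b-2-5p were 1.00 in R and 1.15 in NR, and those of miR-29c-3p were 0.90 in R and 0.97 in NR. The adjusted p were 0.0429 and 0.0602 for miR-29b-2-5p and 0.04998 and 0.0624 for miR-29c-3p, so that both members were called in R and missed the threshold in NR.

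**Figure D4:**
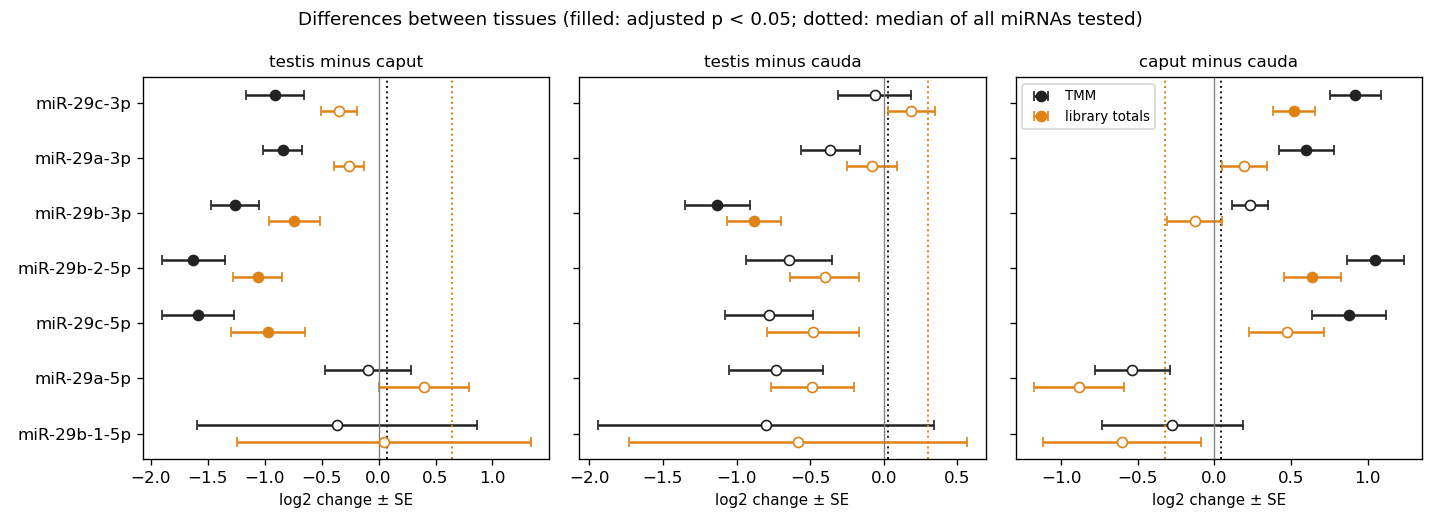
Changes between tissues as log2 with SE (horizontal axes) for each member (rows) in testis minus caput, testis minus cauda and caput minus cauda, under TMM scaling (black) and library totals (orange), with filled points for an adjusted p under 0.05 and dotted lines for the median of all miRNAs tested. Scaling moves members and median together, from 0.07 to 0.64 for the median of testis minus caput, and miR-29b-3p is filled under both in the comparisons with testis.

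The tissues are mixtures of cells, and fewer cells of a type and less RNA per cell cannot be told apart in them. Marker miRNAs are given here beside the shares of all miRNAs called. In testis minus caput 23.6% of all miRNAs were lower and 23.8% higher. There 10 of 10 epithelial and 1 of 4 smooth muscle entries were lower, and 3 of 5 germ cell entries were higher. In testis minus cauda 24.2% of all miRNAs were lower and 23.3% higher. There 10 of 10 epithelial and 4 of 4 smooth muscle entries were lower, and 2 of 5 germ cell entries were higher. In caput minus cauda 12.9% of all miRNAs were lower and 15.1% higher. There 9 of 10 epithelial and 1 of 5 germ cell entries were higher, and 4 of 4 smooth muscle entries (miR-143 and miR-145a) were lower. Counts such as 1 of 4, 1 of 5 and 1 of 6 lie near these shares. Summed smooth muscle entries ran from 5298 to 12205 CPM in testis, 5214 to 11101 CPM in caput and 23147 to 40039 CPM in cauda, and no entry of these lists was at 0 in every library. Mesenchymal entries (miR-199 and miR-214) summed to 6471 to 10460 CPM in testis, 5953 to 15818 CPM in caput and 11991 to 21439 CPM in cauda, and 3 of 6 were lower in testis minus caput, 5 of 6 in testis minus cauda and 1 of 6 in caput minus cauda. Leukocyte entries (among them miR-150-5p and miR-155-5p) were lower in testis minus caput (4 of 6) and testis minus cauda (5 of 7), and summed to 501 to 1594 CPM in testis, 1135 to 3133 CPM in caput and 2097 to 8924 CPM in cauda. Skeletal muscle entries were lower in testis minus caput (2 of 4, miR-133a-3p and miR-133b-3p), testis minus cauda (5 of 5) and caput minus cauda (5 of 5). Their sums were 93.1 to 1052 CPM in testis, highest in TESTIS-NR 3, 179 to 927 CPM in caput and 3235 to 8158 CPM in cauda. Endothelial entries (both strands of miR-126a) were lower in testis minus cauda (2 of 2), with sums of 9923 to 15132 CPM in testis, 5349 to 41447 CPM in caput and 18224 to 32551 CPM in cauda. Erythrocyte entries were lower in testis minus caput (1 of 4) and testis minus cauda (2 of 5), with sums of 60.0 to 196 CPM in testis, 90.8 to 703 CPM in caput and 96.3 to 303 CPM in cauda. Equal values were found for miR-199a-3p and miR-199b-3p (log2 -0.83, SE 0.22, in testis minus caput). The same held for miR-486a-5p and miR-486b-5p of the erythrocyte list (0.20, SE 0.45, in caput minus cauda). The sums above hold both entries of such a pair, and the mesenchymal counts can count it double. The entries of a pair are not separate observations. The part of these cells in the miR-29 differences was not tested.

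A list of 32 other entries for miRNAs linked to extracellular matrix and fibrosis (miR-21, miR-30, miR-133, miR-143, miR-145, miR-192, miR-199, miR-200 and miR-214) was set beside the family. Between seasons 0 of 27 were called in testis, 0 of 31 in caput and 0 of 29 in cauda. Of all miRNAs 0%, 0% and 3.08% were called there. In testis minus caput 13 of 29 were lower and 2 higher, where 23.6% of all miRNAs were lower and 23.8% higher. The median change (log2) was -0.83, beside -0.91 over the miR-29 members and 0.07 over all miRNAs. In testis minus cauda 18 of 29 were lower and 5 higher, where 24.2% of all miRNAs were lower and 23.3% higher. The median was -1.75, beside -0.73 over the miR-29 members and 0.03 over all miRNAs. In caput minus cauda 11 of 31 were higher and 9 lower, where 15.1% of all miRNAs were higher and 12.9% lower. The median was -0.19, beside 0.60 over the miR-29 members and 0.04 over all miRNAs.

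Of that list, miR-30d-5p had a change (log2) of -2.50 (SE 0.21) in testis minus caput and -2.36 (SE 0.20) in testis minus cauda, with adjusted p of 0.000116 and 3.26e-05 in edgeR's quasi-likelihood test with Benjamini-Hochberg adjustment. miR-30a-3p, the other (3p) strand of a different miR-30 hairpin, went the other way in testis minus cauda. Its change was 2.11 (SE 0.20), with an adjusted p of 6.80e-05 in the same test. In caput minus cauda miR-192-5p, an epithelial miRNA, had 4.73 (SE 0.29), and miR-143-3p, which is made in smooth muscle, -1.83 (SE 0.12), with adjusted p of 4.12e-06 and 5.10e-06 in the same test. miR-200c-3p had -6.82 (SE 0.68) in testis minus caput. The list overlaps the epithelial, smooth muscle, skeletal muscle and mesenchymal lists in part, and its tissue differences are not separate from theirs. It also holds both miR-199a-3p and miR-199b-3p, whose values were equal.

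The 5p strands of the miR-29b copies have an entry each, unlike the 3p strands. Across the 16 libraries the log2(CPM + 1) levels of miR-29b-2-5p went with miR-29c-5p (Pearson r = 0.79) and miR-29c-3p (0.78). They went less with miR-29a-3p (0.54) and in the other direction with miR-29a-5p (-0.30). With the tissue means taken out, the values were 0.61 for miR-29c-5p, 0.82 for miR-29c-3p, 0.31 for miR-29a-3p and 0.05 for miR-29a-5p. Strands of 1 hairpin did not always go together: miR-29c-3p and miR-29c-5p had r = 0.53, or 0.42 with tissue means taken out, but miR-29a-3p and miR-29a-5p had -0.47, or -0.36. miR-29a-3p and miR-29c-3p had r = 0.45, or 0.25 with tissue means taken out. Libraries, depth and the scaling to a fixed total are shared by all these points, so the values are descriptions. In mouse miR-29b-2 and miR-29c lie in 1 cluster.

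**Figure D5:**
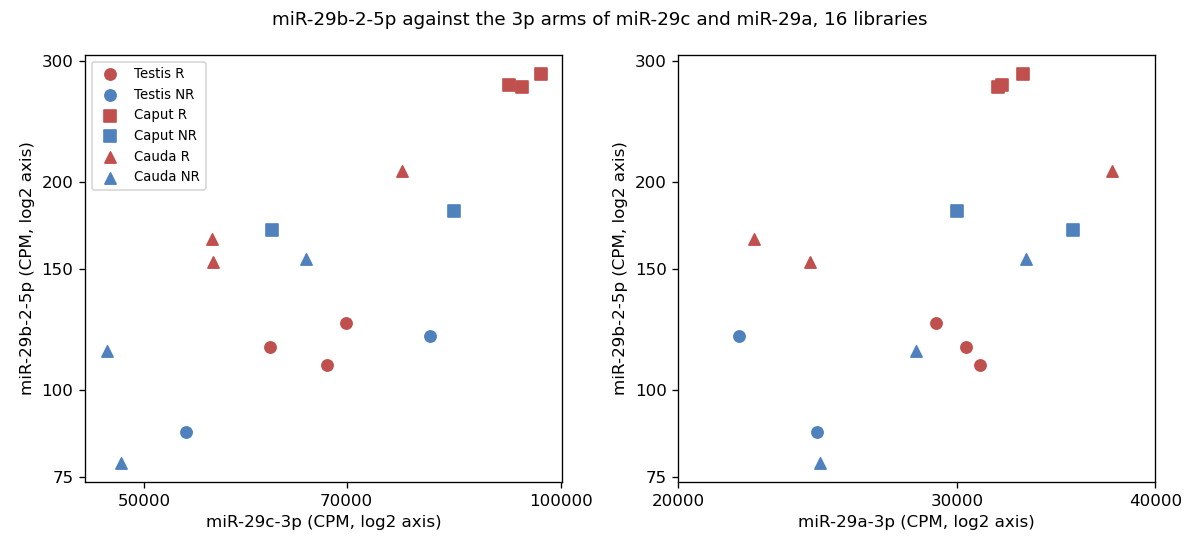
Levels of miR-29b-2-5p (vertical axes, CPM on a log2 scale) against miR-29c-3p (left) and miR-29a-3p (right), with 1 point per measured library, shapes for tissues and red and blue for R and NR. The points follow miR-29c-3p more closely (r = 0.78) than miR-29a-3p (r = 0.54), and the CAPUT-R libraries are at the top of both panels.

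Of 218 other mouse-named miRNAs with a mean of at least 10 CPM, those whose log2(CPM + 1) levels were most like a member's over the 16 libraries differed from member to member. For miR-29b-3p they were miR-191-5p (r = 0.92), let-7f-5p (0.88), miR-378a-5p (0.87), miR-204-5p (0.87) and miR-451a (0.86). For miR-29c-3p they were miR-99b-5p (0.85), miR-135a-5p (0.70), miR-135a-2-3p (0.70), miR-187-3p (0.69) and miR-125a-5p (0.68). For miR-29a-3p they were miR-125b-5p (0.61), miR-125a-5p (0.56), miR-339-5p (0.56), miR-129-5p (0.54) and miR-194-5p (0.52). With tissue means taken out, miR-191-5p stood at 0.81 beside miR-29b-3p and miR-99b-5p at 0.67 beside miR-29c-3p, while miR-135a-5p, which is concentrated in caput at 15807 CPM against 421 CPM in cauda, stood at 0.09. The likeness to miR-135a-5p was thus one of tissue means.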

How the data were processed

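Small RNA libraries were analysed, 18 columns in 6 groups of tissue and season. The authors deposited raw counts per miRNA with no normalization, and featureCounts and bedtools are named, without versions, in the submitters' processing notes. The sources used here name no aligner, genome build or treatment of reads that match several miRNAs. The labels give an RNA integrity number of at least 7 and call the replicates biological.

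CPM were computed from all counts of a column. No test used the 2 averaged columns. Tests used edgeR 4.0.16 (quasi-likelihood test, TMM, default filter on low counts) with limma 3.58.1 in R 4.3.3, over all miRNAs that passed the filter, with a Benjamini-Hochberg adjusted p under 0.05 called. The filter left out miR-29b-1-5p in the testis seasons. The SE is the log2 change divided by the square root of its F value. The procedure was tested on simulated data. Tissues were compared with season as a covariate.

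Named were all 7 members, the 5 mouse-named miRNAs most alike to each 3p strand, and up to 3 of the matrix list per comparison. The members and lists were chosen with earlier results of these data known. Alternatives were DESeq2 size factors, library totals, no filter, DESeq2 1.42.0, a replicate block, all libraries in 1 fit, averaged columns kept, mouse-named rows only (491 of 1210), single seasons and each library left out. One further entry with a miR-29b name and the prefix of new entries had 6 counts in 1 library and was not used. Of 27777 gene identifiers 0 matched the table of gene symbols, so 20 listed miR-29 target genes were not looked up. The sources used here name no molecular identifiers, so precision is limited by counting error at low counts and otherwise by the spread between 2 or 3 libraries. P-values set a change against the spread between libraries, estimated with information from all miRNAs tested. Except under the replicate block, they treat the libraries as independent.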

Additional observations from a re-analysis of the deposited data

How the results depend on the processing

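Season calls of the family were 0 in every setting. Interaction calls were 0 in all 391 fits of a member, with a lowest adjusted p of 0.244. Of the changes of single members, 604 kept sign and side of the threshold, 36 lost the call, 8 gained it and 48 turned sign. The turned values reached 0.40 for miR-29a-5p in testis minus caput and -0.40 for miR-29c-5p between testis seasons. Calls of members in testis minus caput were 3 under library totals and 0 in the NR season alone, in testis minus cauda 4 with averaged columns kept and 2 in the R season alone, and in caput minus cauda 2 under library totals, 2 without the filter and 1 in the NR season alone. Leaving out a library gave 3 to 5, 1 to 2 and 2 to 4 members in these comparisons. Of all miRNAs, DESeq2 called 24, 15 and 53 between seasons in testis, caput and cauda. Averaged columns kept gave 9 in testis and 3 in caput, and all libraries in 1 fit gave 1 in testis and 0 in cauda. Cauda seasons had 1 call without the filter, 2 among mouse-named rows and 0 to 24 without a library. Tissue calls in NR alone were 0, 144 and 51 for testis minus caput, testis minus cauda and caput minus cauda, and for the last 84 in R alone and 74 with all libraries in 1 fit. Interaction calls were 12, 21 and 15 by DESeq2 and 6, 2 and 1 with averaged columns kept. They were also 1 for testis minus caput under library totals, 1 for testis minus cauda with all libraries in 1 fit, and 0 to 2, 0 to 3 and 0 to 1 without a library. Whether replicate numbers pair the libraries was not settled by the data. Same-number correlations of deviations from group means over 325 miRNAs ran from -0.155 to 0.210 between seasons and -0.108 to 0.401 between tissues. Different-number correlations ran from -0.210 to 0.155 and from -0.320 to 0.190. In TESTIS-NR and CAPUT-NR, with n = 2, the deviations of the libraries mirror each other. Values with these groups therefore come in pairs of equal size and opposite sign. The season ranges mirror each other for that reason and cannot decide the pairing. Between caput and cauda the same-number values were higher, at 0.082, 0.101 and 0.219 in R and 0.092 and 0.083 in NR. The different-number values there ran from -0.148 to 0.041. With the replicate number as a block, calls were 0 for the cauda seasons, 165 for testis minus cauda and 68 for caput minus cauda. There miR-29a-3p (0.63, adjusted p 0.163 in edgeR's quasi-likelihood test) missed the threshold in caput minus cauda, and no other member lost its call. Signs turned for miR-29a-5p between testis seasons under library totals (0.0065), the block (0.028) and mouse-named rows (0.041), and for miR-29c-3p there among mouse-named rows (0.020). They turned for miR-29b-2-5p between testis seasons with all libraries in 1 fit (-0.11), and for miR-29a-3p between caput seasons under the block (0.11) and between cauda seasons under library totals (-0.029), the block (-0.020) and 1 fit (-0.0020). In testis minus caput they turned for miR-29a-5p under library totals (0.40), no filter (0.051), averaged columns kept (0.25) and NR alone (0.036), and for miR-29b-1-5p under library totals (0.047). In testis minus cauda they turned for miR-29c-3p under DESeq2 size factors and DESeq2 (0.14 each), library totals (0.19), mouse-named rows (0.17) and NR alone (0.022), and in caput minus cauda for miR-29b-3p under library totals (-0.13). Without single libraries, the testis season changes ran from -0.46 to 0.23 for miR-29a-5p, -0.013 to 0.22 for miR-29b-2-5p, -0.24 to 0.11 for miR-29c-3p and -0.40 to 0.95 for miR-29c-5p. The caput season changes ran from -0.27 to 0.11 for miR-29a-3p and -0.41 to 0.052 for miR-29a-5p. The cauda season changes ran from -0.34 to 0.22 for miR-29a-3p and -0.0067 to 0.32 for miR-29a-5p. Where an NR library of testis or caput was left out, only 1 NR library remained in that season fit. Testis minus caput ran from -0.35 to 0.36 for miR-29a-5p and -1.55 to 0.039 for miR-29b-1-5p, and testis minus cauda from -0.23 to 0.13 for miR-29c-3p. The causes were not tested. Low counts limit miR-29b-1-5p, with 0 to 57 in a library.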
